A study of Homo sapiens with 9 samples.

Results

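Small nucleolar RNA (snoRNA) host genes are genes whose introns carry snoRNAs. They were followed here in LX-2 cells, an immortalised human hepatic stellate cell line, across 9 RNA-seq libraries. The members are every gene listed under a symbol made of SNHG and a number, together with GAS5, ZFAS1, DANCR and EPB41L4A-AS1. That gave 31 of the 20777 genes listed, of which 27 carry an SNHG symbol. The members were chosen by symbol, with no threshold on any value, but the family was selected on the differences its genes showed between these same groups, so results of the comparisons were in view. Its calls and p-values are therefore descriptions taken from a fit over all genes, and they are not independent support for a change in the family.

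The 3 groups of 3 libraries each were untreated LX-2 cells (control, for which the labels name no treatment), cells given transforming growth factor β (TGF-β) and cells given TGF-β and uridine (called TGF-β with uridine below). The labels place both treatments on day 1, and by the methods of the study LX-2 cells were activated with 25 ng/ml TGF-β for 12 h, after which fresh medium with uridine was added. Activated cells in the culture experiments received 1 mg/ml uridine, and the dose is not restated for the sequenced cells. All libraries come from a single cell line labelled as wild type and grown in serum, and nothing states that libraries of a group came from separate cultures, so every p-value measures the spread between these libraries, which may be technical. Of 12 fixed stellate cell and fibroblast markers, 8 reached a mean of 1 FPKM (fragments per kilobase of transcript, scaled to library size) in every group, among them COL1A1, VIM and ACTA2, whereas COL1A2, LUM, DCN and COL3A1 did not. No hepatocyte or endothelial marker reached 1 FPKM. Of the 7 macrophage and leukocyte markers CD68 and CSF1R reached it in every group, and the list's sum was 19.6 to 20.6 FPKM in control, 30.6 to 32.7 FPKM in TGF-β and 27.1 to 30.5 FPKM in TGF-β with uridine. The summed level of the 5 cholangiocyte and epithelial markers, carried mainly by KRT7, was 596 to 803 FPKM in control, 1131 to 1179 FPKM in TGF-β and 833 to 974 FPKM in TGF-β with uridine, and the part of neither list in the results below was tested.

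SnoRNAs guide the chemical modification of ribosomal RNA. Box C/D snoRNAs guide ribose methylation and box H/ACA snoRNAs guide pseudouridylation, while the related scaRNAs do so for spliceosomal RNA in Cajal bodies. In a host gene the small RNA is cut from a spliced intron, and the joined exons form a separate long RNA. Many of these spliced RNAs start with a stretch of pyrimidines, as the mRNAs of ribosomal proteins do, and several of them, GAS5 being the best known, hold only short reading frames and are degraded by nonsense-mediated decay. The libraries report on the spliced host RNA and not on the snoRNA: 0 rows of the counts table carry a SNORD, SNORA or SCARNA symbol.

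The hosts differ in the small RNA they carry. By position in the RefSeq annotation, 12 of the 27 tested hosts held box C/D snoRNAs only, 13 held box H/ACA snoRNAs or a scaRNA only, and GAS5 and SNHG12 held both kinds. The sequences of small RNAs from the hosts with the clearest differences between groups are shown so that the classes can be recognised. They are taken from GENCODE v29 (GRCh38) and run 5′ to 3′ on the strand of the host gene, with the box C motif TGATGA and the box D motif CTGA in capitals for box C/D RNAs and the ACA box in capitals for box H/ACA RNAs. SNORD48 (chr6:31835263-31835326, plus strand) and SNORD52 (chr6:31837076-31837142, plus strand) lie in SNHG32, SNORD60 (chr16:2155023-2155105, minus strand) in SNHG19, and SNORD7 (chr17:35573657-35573753, plus strand) in SNHG30. SNORA78 (chr16:1965184-1965310, plus strand) lies in SNHG9 and SNORA13 (chr5:112161485-112161617, plus strand) in EPB41L4A-AS1.
SNORD48: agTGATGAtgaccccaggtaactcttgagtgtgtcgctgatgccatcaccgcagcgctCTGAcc
SNORD52: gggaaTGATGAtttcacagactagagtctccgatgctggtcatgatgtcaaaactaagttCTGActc
SNORD60: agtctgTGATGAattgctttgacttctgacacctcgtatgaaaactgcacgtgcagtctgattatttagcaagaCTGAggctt
SNORD7: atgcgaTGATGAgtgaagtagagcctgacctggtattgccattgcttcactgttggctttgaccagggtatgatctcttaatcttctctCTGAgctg
SNORA78: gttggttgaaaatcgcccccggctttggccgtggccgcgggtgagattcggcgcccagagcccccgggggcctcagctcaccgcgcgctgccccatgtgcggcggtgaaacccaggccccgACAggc
SNORA13: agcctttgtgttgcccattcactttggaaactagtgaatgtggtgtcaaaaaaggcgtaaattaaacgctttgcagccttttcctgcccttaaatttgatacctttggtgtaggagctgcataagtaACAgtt

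The starts of the host genes were read from RefSeq (GRCh38.p14), which gave a promoter sequence for 27 of the 31 members. A pyrimidine start was counted where the base at the annotated start was C and was followed without a break by at least 4 bases each C or T, a tract of at least 5 bases read on the strand of the gene. This held for 7 hosts (25.9%), against 4.86% of the 15344 listed genes with a sequence and 62.9% of 62 cytosolic ribosomal protein genes. The 7 were SNHG4, SNHG5, SNHG12, SNHG18, SNHG19, SNHG32 and ZFAS1. GAS5, whose RefSeq start is not a C, and SNHG1, with a tract of 3 bases, were counted as without one. The motif CACGTG, which reads the same on both strands, was present anywhere in the promoter window of 7.41% of hosts and 9.13% of listed genes. The windows below, 10 bases before the start and 20 from it on, have the tract in capitals where there is one, and SNHG3 and SNHG30 had none at the start read. They are SNHG32 (chr6:31834906-31834935, plus strand), SNHG19 (chr16:2155339-2155368, minus strand), SNHG5 (chr6:85678714-85678743, minus strand), ZFAS1 (chr20:49278632-49278661, plus strand), SNHG3 (chr1:28505933-28505962, plus strand) and SNHG30 (chr17:35568104-35568133, plus strand). A match or its absence describes these letters at a single annotated start, and other starts of the same gene were not read. GENCODE v29 places the starts of SNHG3 (chr1:28505980, plus strand) and GAS5 (chr1:173868882, minus strand) downstream of the RefSeq starts read here. A tract at those positions would not have been counted.
SNHG32: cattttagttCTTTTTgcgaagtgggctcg
SNHG19: ccgcccctgtCTTTTCggggtcgagtccga
SNHG5: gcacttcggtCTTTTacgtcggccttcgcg
ZFAS1: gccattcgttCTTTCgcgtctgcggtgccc
SNHG3: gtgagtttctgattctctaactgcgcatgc
SNHG30: tgtaagacctgagccgggcggagaagcaaa

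Library totals lay between 40539751 and 41467124 counts, so counting error was small for all but the lowest hosts. Control replicate 1 stood apart from the other libraries. Mitochondrial genes took 16.5% of its counts against 11.1% to 13.6% elsewhere, and its TMM normalisation factor was 0.820 against 0.930 to 1.16. Its slope of log2 CPM (counts scaled to library size) on the GC fraction of a gene was 13.5 against 3.89 to 10.2. Control replicate 3 held the opposite end of these ranges (11.1%, 1.16 and 3.89), so the control libraries spread more than those of the other groups. In all groups together the hosts took a small share of the transcriptome, 0.0935% ± 0.0116 (SD, n = 3) of all counts in control, 0.0896% ± 0.00326 in TGF-β and 0.0877% ± 0.00391 in TGF-β with uridine, and the ranges overlapped.

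Per length, the most abundant hosts were SNHG29 (mean over the 9 libraries 103.9 FPKM), GAS5 (96.1 FPKM), ZFAS1 (74.9 FPKM) and SNHG6 (73.0 FPKM), followed by SNHG5 (46.2 FPKM), SNHG32 (44.7 FPKM), DANCR (41.7 FPKM) and SNHG17 (30.1 FPKM). Over the 9 libraries the FPKM ranges of neighbours in this order overlapped, except that SNHG6 (lowest 60.8 FPKM) lay above SNHG5 (highest 57.7 FPKM) and DANCR (lowest 35.4 FPKM) above SNHG17 (highest 33.8 FPKM). The order of the means differed between groups: GAS5 (107.8 FPKM) stood above SNHG29 (105.1 FPKM) with TGF-β, and with uridine SNHG19 (50.4 FPKM) and SNHG30 (35.8 FPKM) stood above SNHG32 (31.4 FPKM) and SNHG17 (29.5 FPKM). At the lower end SNHG14, the long host of the SNORD115 and SNORD116 clusters in the Prader-Willi region, was at 0.207 FPKM. SNHG29 alone took 24.2% to 34.2% of the counts of all hosts. SNHG18, SNHG22, SNHG28 and SNHG31 had between 0 and 14 reads in every library and did not pass the filter on low counts, which leaves 27 members tested among 13384 genes.

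**Figure D1:**
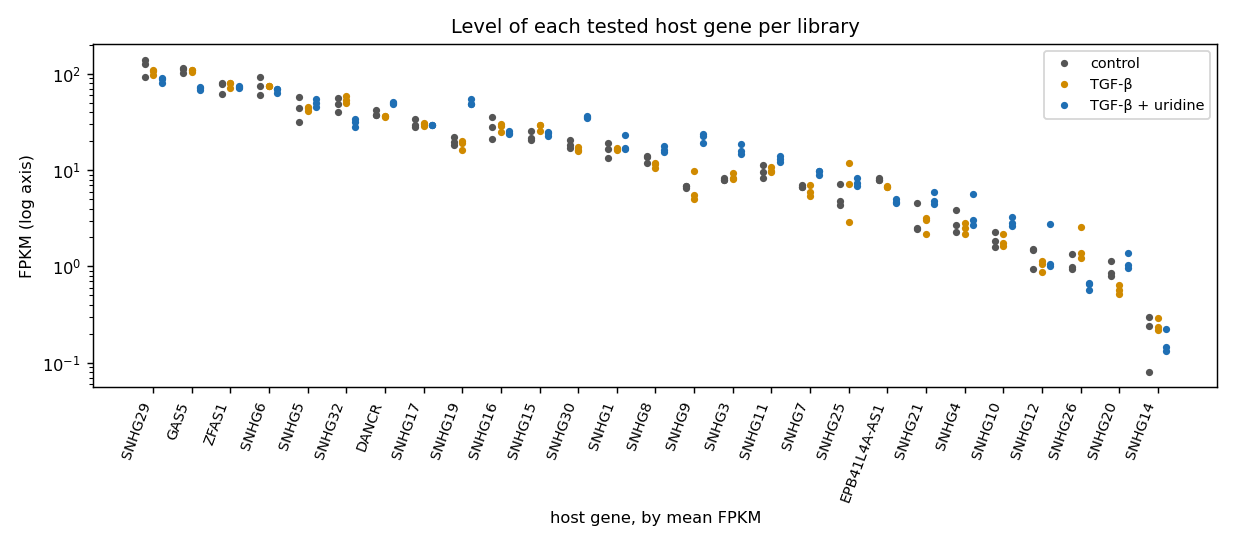
FPKM of the 27 tested host genes on a log axis, ordered by the mean over all libraries, with 1 point per library and 3 libraries per group. SNHG29 and GAS5 lead at means of 103.9 and 96.1 FPKM and SNHG14 is last at 0.207 FPKM.

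The question of the comparison between TGF-β with uridine and TGF-β alone is what uridine changed in activated cells. The hosts spread to both sides. SNHG32 fell by 0.82 on the log2 scale, and it was the only host past the threshold, a Benjamini-Hochberg adjusted p under 0.05 over all tested genes. Among all tested genes 0.0448% were called lower and 0% higher by the same rule, and 623 genes (4.65%) were higher and 554 (4.14%) lower at an unadjusted p under 0.05. At that unadjusted p, 10 hosts were higher and 5 lower. The groups did not overlap for 20 of the 27 hosts, 13 of them higher with uridine (48.1%) and 7 lower (25.9%), where 12.8% of all tested genes were higher and another 12.8% lower without overlap. The median size of the log2 difference, taken without its sign, was 0.56 for the hosts and 0.19 for all tested genes. When counts were scaled to library totals in place of TMM, 11 hosts were higher and 7 lower without overlap, against 17.9% and 11.4% of all tested genes.

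SNHG32, listed as C6orf48 in GENCODE v29, is the host of SNORD48 and SNORD52 whose sequences are given above, and it lies in the major histocompatibility complex region of chromosome 6. Its normalised CPM was 41.5, 40.6 and 41.5 in the control libraries, 44.2, 50.5 and 45.2 with TGF-β, and 27.9, 26.1 and 25.1 with TGF-β and uridine. Every uridine library was below every other library. The mean was 46.7 ± 3.39 (SD, n = 3) CPM with TGF-β and 26.4 ± 1.39 CPM with uridine, a log2 difference of −0.82 (SE 0.10, adjusted p = 0.0467 by edgeR's quasi-likelihood test), or 1.77-fold lower. The call did not pass when any library other than control replicate 1 was left out, although the difference kept its sign in all 20 alternative settings. Its exons overlap those of AL671762.1 on the same strand, so the split of reads between them is uncertain.

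GAS5, a non-coding host of 10 box C/D snoRNAs and of SNORA103 that is named for its accumulation in growth-arrested cells, had 105, 92.3 and 85.3 CPM in control, 91.8, 92.9 and 92.8 CPM with TGF-β, and 58.0, 62.0 and 57.1 CPM with uridine. The uridine libraries were again the lowest 3. The log2 difference between uridine and TGF-β was −0.65 (SE 0.10, adjusted p = 0.102 by edgeR). SNHG29, the most abundant host and the source of SNORD49A, SNORD49B and SNORD65, had 256, 277 and 268 CPM with TGF-β and 219, 218 and 207 CPM with uridine, with control at 284, 307 and 307 CPM. By normalised CPM its groups were ordered control, TGF-β and uridine without overlap, and the uridine step was −0.31 (SE 0.08, adjusted p = 0.309 by edgeR). By FPKM control and TGF-β overlapped, since control replicate 1 (92.63 FPKM) lay below every TGF-β library (98.5 to 109.6 FPKM).

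EPB41L4A-AS1, which carries the box H/ACA snoRNA SNORA13, had 12.1, 9.19 and 8.10 CPM in control, 8.15, 8.30 and 8.01 CPM with TGF-β, and 5.28, 6.40 and 5.17 CPM with uridine. Control replicate 1 held the highest value and the uridine libraries the lowest. The log2 difference of uridine from TGF-β was −0.54 (SE 0.19, adjusted p = 0.447 by edgeR). SNHG26, the host of SNORD93, had the largest negative difference at −1.47 (SE 0.36, adjusted p = 0.261), but it rests on 18 to 82 reads per library. Its CPM was 0.92, 0.69 and 0.88 in control, 1.08, 1.98 and 0.93 with TGF-β, and 0.49, 0.47 and 0.47 with uridine, and TGF-β replicate 2 alone lay far above the other TGF-β libraries.

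On the other side stood SNHG19, a short host on chromosome 16 whose intron holds SNORD60. It had 9.63, 6.69 and 5.70 CPM in control, 7.09, 7.14 and 5.77 CPM with TGF-β, and 16.6, 18.5 and 18.1 CPM with uridine. All uridine libraries were above all others, and the mean with uridine was 2.66 times that with TGF-β (log2 difference 1.41, SE 0.21, adjusted p = 0.0992 by edgeR). SNHG9, which lies on the same chromosome and carries SNORA78, had 1.96, 1.55 and 1.32 CPM in control, 2.34, 1.31 and 1.17 CPM with TGF-β, and 4.30, 5.72 and 5.11 CPM with uridine. It had the largest positive log2 difference of the family, 1.65 (SE 0.32, adjusted p = 0.167 by edgeR), from 48 to 226 reads per library.

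SNHG3, the host of SNORA73A and SNORA73B, had 22.4, 18.6 and 16.1 CPM in control, 20.2, 19.0 and 21.7 CPM with TGF-β, and 33.7, 40.4 and 40.4 CPM with uridine. The uridine libraries did not overlap the rest (log2 difference 0.91, SE 0.15, adjusted p = 0.158 by edgeR). SNHG3 shares exons with RCC1 on the same strand, and for RCC1 the same difference was 0.12 (SE 0.12). SNHG30, listed as LINC02001 in GENCODE v29 and the host of SNORD7, had 20.8, 14.5 and 12.2 CPM in control, 13.6, 14.3 and 13.4 CPM with TGF-β, and 28.3, 32.5 and 26.9 CPM with uridine, a log2 difference of 1.09 (SE 0.20, adjusted p = 0.164 by edgeR). Since the strand setting of the counting was not given, reads of a host gene and of a gene on the opposite strand with overlapping exons cannot be told apart.

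**Figure D2:**
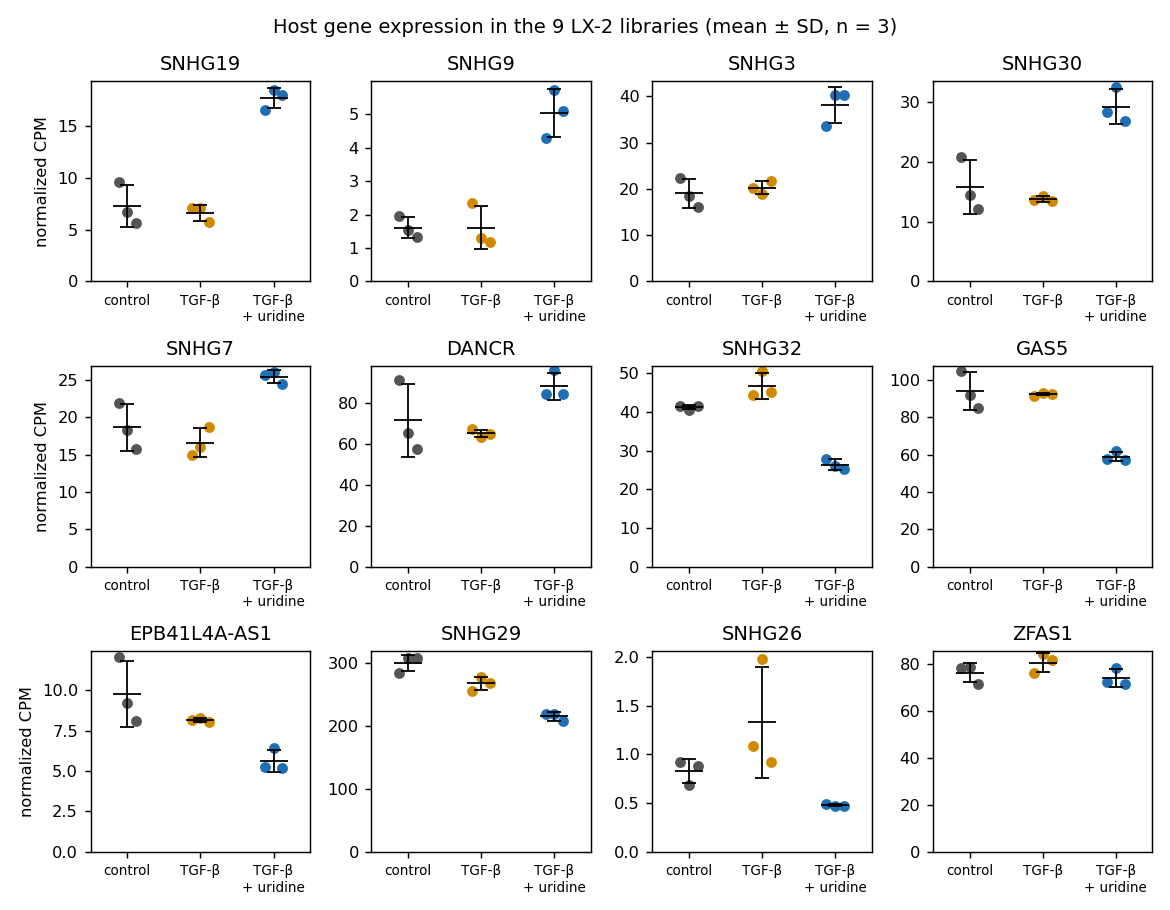
Normalised CPM of 12 host genes in each library (points), with the mean and SD of the 3 libraries of each group (bars) on axes that start at 0. In SNHG19, SNHG9, SNHG3 and SNHG30 the 3 uridine libraries lie above the other 6, in SNHG32 and GAS5 they lie below them, and in ZFAS1 the groups overlap.

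SNHG7, which carries copies of SNORA17, had 21.9, 18.3 and 15.7 CPM in control, 15.0, 16.1 and 18.7 CPM with TGF-β and 25.6, 26.1 and 24.4 CPM with uridine (log2 difference 0.62, SE 0.15, adjusted p = 0.265 by edgeR). DANCR, a host of SNORA26 named for a role in blocking cell differentiation, had 91.2, 65.1 and 57.6 CPM in control, 66.9, 63.4 and 64.7 CPM with TGF-β and 84.2, 95.7 and 84.0 CPM with uridine (log2 difference 0.44, SE 0.16, adjusted p = 0.468). By normalised CPM, DANCR in control replicate 1 reached the uridine level, so its uridine libraries stood apart from the TGF-β libraries and not from control. By the deposited FPKM they stood above control as well, at 49.0, 49.84 and 50.89 FPKM against 41.89, 37.77 and 37.34 FPKM. SNHG8, the host of SNORA24, had 10.7, 8.26 and 6.33 CPM in control, 6.74, 7.43 and 7.11 CPM with TGF-β and 9.26, 10.8 and 10.3 CPM with uridine, with control replicate 1 again at the uridine level by this measure. By FPKM its control libraries (14.17, 13.83 and 11.84) lay below its uridine libraries (15.53, 16.25 and 17.95).

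The hosts of scaRNAs had low levels. SNHG20, which carries SCARNA16, had 2.25, 1.67 and 2.12 CPM in control, 1.28, 1.11 and 1.39 CPM with TGF-β and 2.14, 2.25 and 2.76 CPM with uridine, so TGF-β was the low group, and the log2 difference of uridine from TGF-β was 0.92 (SE 0.24, adjusted p = 0.302 by edgeR). SNHG21, which carries SCARNA15, had 3.17, 2.57 and 4.15 CPM in control, 2.34, 3.39 and 3.17 CPM with TGF-β and 4.88, 5.02 and 5.85 CPM with uridine. SNHG10, which carries SCARNA13, had 3.85, 4.33 and 3.10 CPM in control, 3.27, 3.41 and 4.21 CPM with TGF-β and 5.02, 5.91 and 5.96 CPM with uridine. In SNHG21 and SNHG10 the uridine libraries were above all others, with log2 differences from TGF-β of 0.82 and 0.63 and adjusted p of 0.363 and 0.404 by edgeR. SNHG20 shares exons with SEC14L1 on the same strand, whose difference was 0.05 (SE 0.09).

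Several of the most abundant hosts moved little. ZFAS1, the host of the SNORD12 family, had 78.3, 78.9 and 71.6 CPM in control, 76.0, 84.0 and 81.7 CPM with TGF-β and 72.4, 78.4 and 71.6 CPM with uridine, and the groups overlapped. SNHG5, the host of SNORD50A and SNORD50B, had 19.6, 21.8 and 25.3 CPM in control, 23.3, 23.2 and 20.9 CPM with TGF-β and 27.0, 24.5 and 23.7 CPM with uridine, a log2 difference of 0.16 (SE 0.13). SNHG6 had 52.7, 51.7 and 56.6 CPM in control, 55.0, 54.1 and 52.8 CPM with TGF-β and 48.1, 48.2 and 46.1 CPM with uridine, a log2 difference of −0.19 (SE 0.09). SNHG17, a host of SNORA71 copies, ranged from 36.2 to 60.8 CPM over the control libraries alone, with control replicate 1 the highest, and from 40.4 to 47.6 CPM over the 6 treated libraries. SNHG4 and SNHG12 had log2 differences of 0.56 and 0.59, and both leaned on uridine replicate 3, which stood at 8.18 CPM against 4.54 and 4.50 CPM for SNHG4 and at 5.49 CPM against 2.19 and 2.33 CPM for SNHG12. Without that library the differences were 0.21 for SNHG4 and 0.03 for SNHG12. The other hosts, SNHG1, SNHG11, SNHG14, SNHG15, SNHG16 and SNHG25, had log2 differences between −0.61 and 0.35 and no unadjusted p under 0.05.

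The class of small RNA, which was not used to choose the members, ran with the sign of the difference in part. Of the 13 hosts of box H/ACA snoRNAs or scaRNAs, 10 were above 0 (median log2 difference 0.56), and all 10 of these were higher without overlap. The margin was narrow for SNHG4, with 4.50 CPM in its lowest uridine library and 4.36 CPM in its highest TGF-β library. Of the 12 hosts of box C/D snoRNAs only, 8 were below 0 (median −0.15), 5 of them lower without overlap and 3 of the others higher. EPB41L4A-AS1, SNHG15 and SNHG17 were below 0 among the box H/ACA hosts, and SNHG19, SNHG30, SNHG1 and SNHG5 were above 0 among the box C/D hosts, so both classes held exceptions and the most changed hosts of each sign included box C/D hosts. SNHG25, at −0.01, also holds a box H/ACA RNA in GENCODE v29. Other genes with a snoRNA or scaRNA inside them showed no such division: 49 of 97 tested genes with box C/D RNAs only were above 0, as were 58 of 111 with box H/ACA or scaRNAs only. Without overlap 10 of the 97 were higher and 9 lower, and 17 of the 111 were higher and 16 lower. Among all tested genes 12.8% were so in each direction. The division was noticed in these values and got no test. Tested hosts with a pyrimidine start stood on both sides of 0. SNHG19 (1.41), SNHG12 (0.59), SNHG4 (0.56) and SNHG5 (0.16) were above it, and SNHG32 (−0.82) and ZFAS1 (−0.12) were below. Whether such a start goes with the sign was not tested.

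The number of hosts called differed between fits. When only the 6 libraries of the compared groups entered the edgeR fit, 6 hosts were called higher (DANCR, SNHG3, SNHG7, SNHG9, SNHG19 and SNHG30) and 3 lower (GAS5, SNHG29 and SNHG32), where 1.08% of all tested genes were called higher and 1.35% lower. The fit over all groups without control replicate 1 called the same 9 hosts (0.716% and 1.26% of all genes), and leaving out any other library gave 0 host calls in either direction, in fits that called at most 4 of all tested genes. With each library's GC slope as a covariate, 11 hosts were called higher and 7 lower (10.0% and 9.12% of all genes), and DESeq2 called 4 higher and 2 lower (0.315% and 0.503%). The median GC content was 49.3% for the hosts above 0, 45.8% for those below 0 and 49.3% for all tested genes.

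**Figure D3:**
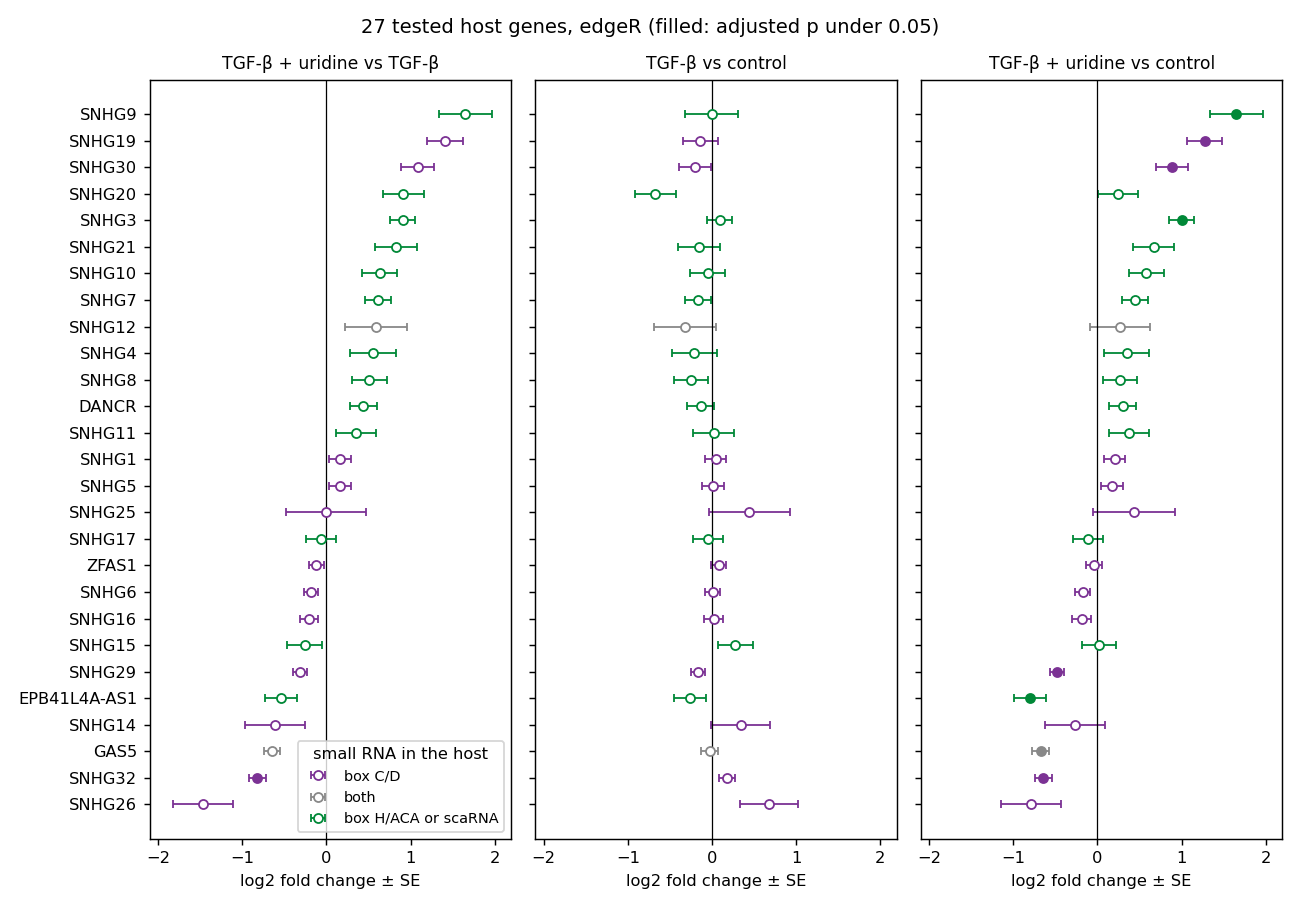
Log2 fold change with its standard error (edgeR, fit over all 9 libraries) of the 27 tested host genes in the 3 comparisons, ordered by the first, with the colour giving the class of small RNA and filled points an adjusted p under 0.05. SNHG32 is the only filled point for uridine, there is none for TGF-β, and 8 are filled for TGF-β with uridine against control.

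The comparison of TGF-β with control asks what activation alone did to these genes. No host was called in either direction by edgeR, where 2.42% of all tested genes were called higher and 0.964% lower, and DESeq2 also called 0 (3.13% and 1.76% of all genes). The log2 differences of the 27 hosts lay between −0.67 and 0.68. At an unadjusted p under 0.05, which 6.69% of all tested genes reached upward and 5.43% downward, there was 1 host, SNHG20, which was lower with TGF-β (log2 difference −0.67, SE 0.24, unadjusted p = 0.0214, adjusted p = 0.243 by edgeR) and whose overlapping neighbour SEC14L1 fell by 0.42 (SE 0.09, adjusted p = 0.0375). By normalised CPM the groups did not overlap for 4 hosts, with SNHG26 and SNHG32 higher and SNHG20 and SNHG29 lower, or 7.41% in each direction, close to the 9.72% and 7.96% of all tested genes. By FPKM the control and TGF-β libraries of SNHG26, SNHG32 and SNHG29 overlapped. SNHG15, the host of SNORA9, was called higher when control replicate 1 was left out (5.18% of all genes higher and 2.75% lower in that fit), and it had 31.0, 20.5 and 17.6 CPM in control against 29.9, 28.9 and 24.9 CPM with TGF-β. With the GC slope as a covariate SNHG15 was called higher and SNHG29 lower, in a fit that called 11.6% and 8.70% of all tested genes.

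The comparison of TGF-β with uridine against control measures both treatments at once and shares its uridine libraries with the first comparison. SNHG3, SNHG9, SNHG19 and SNHG30 rose and GAS5, SNHG29, SNHG32 and EPB41L4A-AS1 fell, 4 of 27 in each direction, where 2.89% of all tested genes were called higher and 2.44% lower. At an unadjusted p under 0.05, 7 hosts were higher and 4 lower, against 9.08% and 8.55% of all tested genes. The largest rise was that of SNHG9, by 1.65 on the log2 scale (SE 0.32, adjusted p = 0.0182 by edgeR), and SNHG19 rose by 1.27 (SE 0.21, adjusted p = 0.00928). SNHG3 rose by 1.00 (SE 0.15, adjusted p = 0.00607 by edgeR) and SNHG30 by 0.89 (SE 0.19, adjusted p = 0.0334). All 4 had higher values in each uridine library than in any control library.

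Among those that fell, EPB41L4A-AS1 had the largest difference at −0.80 (SE 0.19, adjusted p = 0.0478 by edgeR), followed by GAS5 at −0.67 (SE 0.10, adjusted p = 0.00577), SNHG32 at −0.64 (SE 0.10, adjusted p = 0.00697) and SNHG29 at −0.48 (SE 0.08, adjusted p = 0.0127). Each uridine library was below each control library in all 4. The exons of EPB41L4A-AS1, GAS5 and SNHG29 overlap other genes on the opposite strand, and LRRC75A, the partner of SNHG29, had only 12 to 46 reads per library. Without overlap 8 hosts were higher and 6 lower (29.6% and 22.2%), against 10.5% and 9.20% of all tested genes. An exact permutation test on 3 against 3 libraries cannot go below p = 0.10.

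Setting the comparisons side by side, the 8 hosts had log2 differences with TGF-β alone of −0.26 for EPB41L4A-AS1, −0.20 for SNHG30, −0.17 for SNHG29, −0.14 for SNHG19, −0.03 for GAS5, 0.00 for SNHG9, 0.09 for SNHG3 and 0.18 for SNHG32, none past the test. These comparisons share libraries with those above and do not add independent evidence. With only the control and uridine libraries in the fit, SNHG3 and SNHG9 were called higher and no host lower (1.14% and 0.558% of all genes). DESeq2 called the same 8 hosts as the fit over all groups (3.82% and 3.69% of all genes). Leaving out control replicate 1 gave 7 higher and 4 lower (9.48% and 8.16% of all genes), and leaving out control replicate 2 gave 1 higher and 2 lower (1.35% and 0.879%). There were 2 higher and 2 lower without uridine replicate 1 (1.51% and 0.848% of all genes) and without uridine replicate 3 (1.67% and 0.846%), and 2 higher and 3 lower without uridine replicate 2 (1.62% and 1.05%).

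Companion genes were read from 6 lists: snoRNP (snoRNA-protein particle) core proteins, snoRNP assembly factors, nonsense-mediated decay factors, protein-coding snoRNA hosts, translation factors and ribosomal RNA factors. No gene of any list was called by edgeR for uridine against TGF-β or for TGF-β against control. Over the 133 tested entries, 8 had an unadjusted p under 0.05 for uridine (4.65% of all tested genes higher and 4.14% lower), 1 for TGF-β (6.69% and 5.43%) and 13 for both treatments against control (9.08% and 8.55%), and DESeq2 called 1, 0 and 3. All 8 core proteins of the snoRNPs were tested, 4 of which bind box C/D and 4 box H/ACA RNAs, and none was called in any comparison. The lowest p against TGF-β was that of NOP10, a box H/ACA core protein, at 0.16 (SE 0.09, adjusted p = 0.718 by edgeR). Of 12 assembly factors, SHQ1, which chaperones the pseudouridine synthase dyskerin, rose in TGF-β with uridine against control by 0.64 (SE 0.15, adjusted p = 0.0411 by edgeR), with means of 12.9 ± 2.22, 17.2 ± 0.351 and 20.1 ± 0.183 CPM (SD, n = 3) in control, TGF-β and TGF-β with uridine.

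Of 16 factors of nonsense-mediated decay, the pathway that degrades several of the host RNAs, SMG5 and UPF1 rose in TGF-β with uridine against control and 14 were not called. SMG5, which takes part in the dephosphorylation of UPF1, averaged 132 ± 29.7, 135.0 ± 4.29 and 249.7 ± 17.2 CPM in the 3 groups, a difference of 0.92 (SE 0.15, adjusted p = 0.00898 by edgeR). UPF1, the central helicase of the pathway, averaged 122 ± 6.05, 123 ± 2.31 and 156.0 ± 5.25 CPM, a difference of 0.35 (SE 0.08, adjusted p = 0.0445). Against TGF-β alone the differences were 0.89 for SMG5 (adjusted p = 0.161 by edgeR) and 0.34 for UPF1 (adjusted p = 0.261), and the list's median was 0.21 against 0.02 for all tested genes, with 4 of its 16 genes higher and 1 lower without overlap, where 12.8% of all tested genes were so in each direction.

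The other lists had medians near that of all genes. Of 49 tested protein-coding snoRNA hosts, none was called by edgeR in any comparison (5 at an unadjusted p under 0.05 and 1 by DESeq2 for TGF-β with uridine against control), and the median for uridine against TGF-β was −0.05, with TNPO2, a nuclear import receptor, having the lowest p (0.39, SE 0.10, adjusted p = 0.261 by edgeR). Of 20 translation factors and related genes whose mRNAs start with pyrimidines, none was called and the median was −0.04, with EEF1A1, translation elongation factor 1 alpha, having the lowest p (−0.37, SE 0.15, adjusted p = 0.514). Of 28 factors of ribosomal RNA synthesis and processing, none was called and the median was 0.12, with the rRNA methyltransferase NOP2 having the lowest p (0.32, SE 0.13, adjusted p = 0.511).

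**Figure D4:**
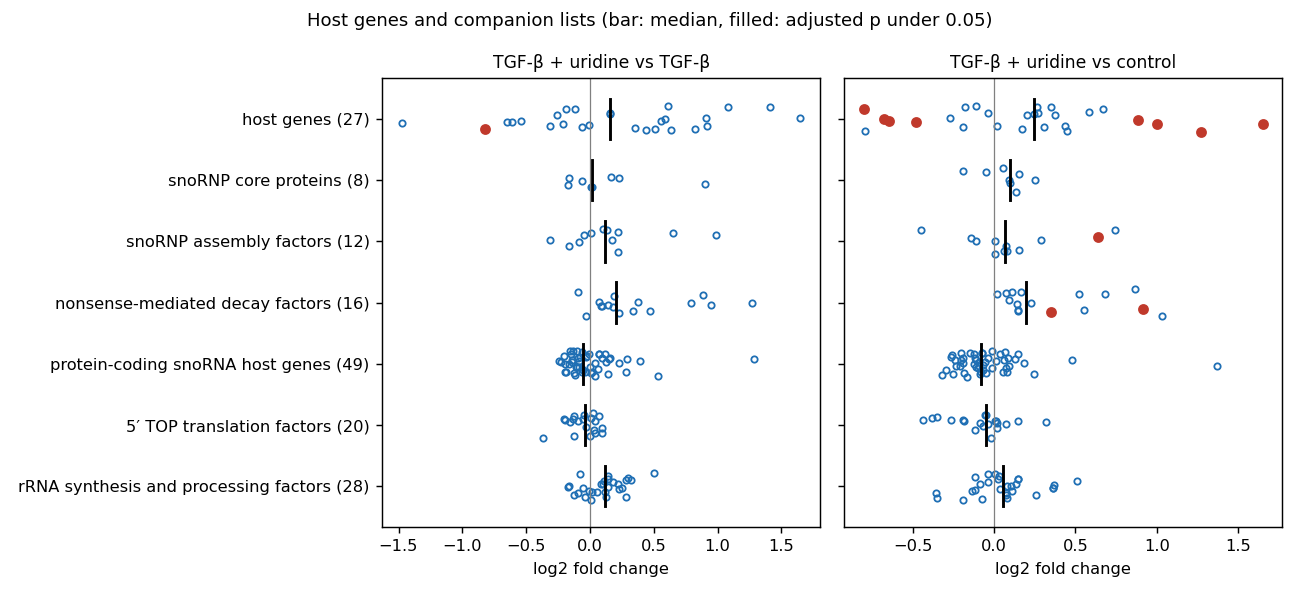
Log2 fold changes (edgeR, fit over all 9 libraries) of the 27 tested host genes and of the genes of 6 companion lists, 1 point per gene, with the median of each list as a bar and filled points an adjusted p under 0.05. The hosts spread from −1.47 to 1.65 around a median of 0.16 for uridine against TGF-β. The medians of the lists lie between −0.05 and 0.21.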

How the data were processed

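Poly(A) or total RNA selection was not given in the sources used here. Libraries were made with the VAHTS Universal V6 kit, and the submitters' processing notes name fastp, HISAT2, HTSeq, R 3.2.0 and GRCh38.p13. The authors deposited read counts per gene for all 9 libraries and, separately, FPKM values. The gene annotation and strand setting were not given. The deposited counts were tested with edgeR 4.0.16 (filterByExpr, TMM, glmQLFit, glmQLFTest, R 4.3.3) in a single model of 3 groups, with Benjamini-Hochberg adjustment over 13384 tested genes. The deposited FPKM values served for levels between genes and for limma 3.58.1 on log2(FPKM + 1) and log2(FPKM + 0.1). The fits were also run on simulated counts with the same spread in every group. The spread of these libraries differed between groups, so that run does not give the error rates of the fits here. DESeq2 1.42.0, other normalisations, filters and designs were alternatives.

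Members and companion lists were chosen with earlier results of these data known. Values are given for hosts called or with an unadjusted p under 0.05 in any comparison and for the 8 highest by FPKM, and from each list for called genes or the gene of lowest p. Other hosts named with values were chosen after those were seen. Members were matched to GENCODE v29 by Ensembl identifier (31 of 31), and small RNAs to hosts by RefSeq position. GC content was known for 95.8% of tested genes. Mitochondrial genes carry no MT- prefix in the table and were taken by name. Replicates within groups differed beyond counting noise, so none was a duplicate.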

Additional observations from a re-analysis of the deposited data

How the results depend on the processing

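The log2 difference of every host that was past an unadjusted p of 0.05 in a comparison kept its sign in all alternatives run for it. The number of calls moved more. For uridine against TGF-β (0 higher and 1 lower), DESeq2 gave 4 and 2, the 2-group fit 6 and 3 and the GC slope covariate 11 and 7. Limma gave 7 and 3 at pseudocount 1 (2.61% and 1.27% of all genes), at 0.1 (2.56% and 1.25%) and without a filter (0.919% and 0.501%). Upper-quartile normalisation gave 2 lower (0.0598%) and no filter on low counts 0 lower (0.0193%). Leaving out each library in turn gave 0 to 6 higher and 0 to 3 lower, with the highest counts without control replicate 1. For TGF-β against control (0 and 0), the GC covariate gave 1 and 1, and leaving out libraries 0 to 1 higher and 0 lower. For TGF-β with uridine against control (4 and 4), the 2-group fit gave 2 and 0. The GC covariate gave 10 higher and 5 lower there, in a fit that called 17.8% and 13.3% of all genes. Limma gave 7 higher at either pseudocount (8.63% and 8.53% of all genes), and leaving out libraries 1 to 7 higher and 2 to 4 lower. RLE factors and a minimum of 10 counts stayed within 1.5 times of each count. The cause of these moves was not tested. With library totals in place of TMM, chosen after seeing the data, 0 hosts were higher and 3 lower without overlap in TGF-β against control. All tested genes gave 9.84% and 10.6% by that scaling, and with TMM there were 2 hosts in each direction.

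Deviations from the group mean correlated at −0.21 to 0.56 between same-numbered libraries of different groups, and at −0.66 to 0.63 between libraries of different number. With 3 libraries per group these values cannot tell whether the numbers pair the libraries. With the replicate block, 0 hosts were called lower for uridine against TGF-β, in a fit that called 0 of all tested genes in either direction. For TGF-β with uridine against control it called 3 hosts higher and 3 lower (1.91% and 1.35% of all genes). Without mitochondrial genes the host share was 0.108% in control, 0.102% in TGF-β and 0.0996% in TGF-β with uridine. With DESeq2, 1 nonsense-mediated decay factor was called for uridine against TGF-β (0.315% of all genes higher and 0.503% lower). For TGF-β with uridine against control it called 1 nonsense-mediated decay factor, 1 snoRNP assembly factor and 1 protein-coding host (3.82% and 3.69% of all genes). Read numbers were lowest for the 4 hosts not tested, at 0 to 14 per library.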

Other observations

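Genes outside the host family with a snoRNA or scaRNA inside them were also read by class. For TGF-β with uridine against control, 39 of 97 genes with box C/D RNAs only were above 0 (median −0.04), as were 54 of 111 with box H/ACA RNAs or scaRNAs only (median −0.02). Of the box C/D genes 0 were called higher and 1 lower, and of the box H/ACA or scaRNA genes 1 higher and 2 lower. Among all tested genes 2.89% were called higher and 2.44% lower. Among the called genes PABPC4, a cytoplasmic poly(A)-binding protein that holds SNORA55, rose by 0.49 (SE 0.09, adjusted p = 0.0127 by edgeR). CHD3, a chromatin remodeller that holds SCARNA21, fell by 0.37 (SE 0.08, adjusted p = 0.0283 by edgeR). TNS3, a focal adhesion protein that holds SNORD151, fell by 0.68 (SE 0.10, adjusted p = 0.00638 by edgeR). The choice of these 3 genes followed from their values.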
